A study of Mus musculus with 7 samples.

Results

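The CatSper channel of sperm was followed at the RNA level in testes of male mice with and without *Rlim*, the X-linked gene for a ubiquitin ligase. 10 of the 19719 genes listed in the testis table encode its subunits and were chosen by name. 4 of them form the pore (*Catsper1*, *Catsper2*, *Catsper3* and *Catsper4*). The other 6 are auxiliary (*Catsperb*, *Catsperg1*, *Catsperg2*, *Catsperd*, *Catsperz* and *Efcab9*). Total testis RNA came from 3 control males, which carried the floxed *Rlim* allele and no Cre (fl/Y, labelled WT), and 4 males with *Rlim* deleted by the Sox2-Cre transgene (cKO/Y Sox2-Cre, written cKO/Y below, labelled Rlim-KO). The strain is given as C57BL/6, and by the study's methods the males were 8-week-old littermates. Sox2-Cre acts in the early embryo, so the deletion reaches both the germline and the supporting cells of the testis. The labels place fl/Y replicates 1 and 2 and cKO/Y replicates 1 and 2 in batch 2, and fl/Y replicate 3 and cKO/Y replicates 3 and 4 in batch 1. They do not say what a batch shares.

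CatSper is a calcium channel found in the membrane of the sperm tail. It opens when the inside of the sperm becomes alkaline, and the calcium that enters drives the vigorous tail beat called hyperactivation, which sperm need for fertilization. The pore is built of CatSper 1, 2, 3 and 4, each contributing a similar part of the ring. CatSper beta, gamma and delta (from *Catsperb*, *Catsperg1* and *Catsperg2*, and *Catsperd*) carry large domains outside the cell, and CatSper zeta with EFCAB9, a calcium-binding protein, sits on the inner side. The RNAs are made in germ cells of the testis, before sperm leave it. In total testis, fewer germ cells of a stage and less RNA per cell cannot be told apart.

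Values are in CPM, read counts that the authors put on a common library scale. Between 2822168 and 8633399 reads fell in the listed genes of a library, and each subunit had 73 to 2118 reads in a library. Ribosomal RNA genes took 18.8% to 31.3% of reads in batch 2 and 7.07% to 10.7% in batch 1. *Rlim* stood at 99.5, 70.7 and 61.5 CPM in fl/Y replicates 1 to 3 and at 32.6, 35.7, 21.7 and 20.7 CPM in cKO/Y replicates 1 to 4, a log2 fold change of -1.38 ± 0.16 (SE, limma adjusted p = 0.00870), so the genotype labels and the targeted RNA went together. Testis markers were present, with 8 genes of elongating spermatids summing to 8749 to 13759 CPM and 8 genes of round spermatids to 1107 to 1430 CPM. *Rnase10*, a gene of the epididymis, ranged from 0 to 2.83 CPM.

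The gamma subunit has a gene pair in the mouse. The pair is shown here because reads were short and both genes gave the clearest difference of the family between batches, not between genotypes. *Catsperg1* (GRCm38 chromosome 7 from 29181321 to 29214035) and *Catsperg2* (chromosome 7 from 29697219 to 29727032) both lie on the minus strand, 483 kb apart. Their coding sequences are identical at 3310 of 3432 aligned bases (96.4%), with 1 run of 341 identical bases. In the stretch of 60 coding bases below, where they differ most, capitals mark the 13 bases at which the pair is not the same. It spans chr7:29195460-29195519 in *Catsperg1* and chr7:29710056-29710115 in *Catsperg2*, read from the GENCODE transcripts on the minus strand.
Catsperg1: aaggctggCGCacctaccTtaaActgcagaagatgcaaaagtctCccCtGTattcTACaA
Catsperg2: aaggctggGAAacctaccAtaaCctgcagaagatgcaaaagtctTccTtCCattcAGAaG
Closer to the start codon, both genes hold the same 60 bases, at chr7:29210828-29210887 in *Catsperg1* and chr7:29725383-29725442 in *Catsperg2*.
Catsperg1 and Catsperg2: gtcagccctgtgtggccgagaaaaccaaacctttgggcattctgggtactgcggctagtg
Taken by itself, a 35-base read from the first stretch can be placed on its gene, while a read from the second cannot. Reads came in pairs, and a mate that covers a differing base could place such a read. The shared words below treat each read singly and leave mates out. Of all 35-base words in its transcripts, *Catsperg1* shares 52.4% with other genes and *Catsperg2* shares 51.0%, so the split of reads between the pair is uncertain and their sum is given as well.

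Other subunits share less sequence. *Catsperz* shares 40.1% of its words, all with *Kcnk4*, a potassium channel gene that overlaps it on the same strand. *Kcnk4* is not among the genes listed in the testis table. The reads of *Catsperz* may include those of *Kcnk4*, or lack those that fit both genes. *Catsperb* shares 19.8% with the pseudogene Gm18795 and *Catsper4* shares 1.33% with other genes. *Catsper1*, *Catsper2*, *Catsper3*, *Catsperd* and *Efcab9* share 0%. *Catsper2* overlaps *Pdia3* on the other strand, and whether counting used strand is not given in the sources used here.

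The pore genes lie on 4 chromosomes. *Catsper1* is on chromosome 19 from 5335741 to 5344153, *Catsper2* on chromosome 2 from 121392631 to 121413792, *Catsper3* on chromosome 13 from 55784568 to 55808998 and *Catsper4* on chromosome 4 from 134211970 to 134227383. Among the auxiliary genes, *Catsperb* is on chromosome 12 from 101404653 to 101626009, *Catsperd* on chromosome 17 from 56628143 to 56664456, *Catsperz* on chromosome 19 from 6922426 to 6925380 and *Efcab9* on chromosome 11 from 32522751 to 32532081. None of the 10 is X-linked, unlike *Rlim*.

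RNA of every subunit was found in every library, and the levels of the subunits spanned a wider range than those of the genotypes. To compare genes, CPM were divided by the length of the longest coding transcript in kb. *Catsperz* was highest in fl/Y testes, at 258 ± 8.31 CPM per kb (SD, n = 3), followed by *Efcab9* at 157 ± 9.78 and *Catsper2* at 72.3 ± 9.09 CPM per kb. These 3 did not overlap each other in fl/Y, and *Catsper2* did not overlap the next gene. The remaining 7 formed a continuous row from *Catsper4* at 37.6 ± 5.72 CPM per kb through *Catsperd* (36.3 ± 3.33), *Catsper1* (34.1 ± 3.91), *Catsperb* (32.4 ± 7.19), *Catsperg2* (24.7 ± 8.21) and *Catsper3* (24.5 ± 5.84) to *Catsperg1* at 22.7 ± 8.38 CPM per kb, each overlapping its neighbour. Thus the cytoplasmic pair, zeta and EFCAB9, led the order, and *Catsper2* stood apart from the other pore genes. *Catsperz* reads may hold some of *Kcnk4*, or lack those that fit both genes, as said above. *Catsperg1* and *Catsperg2* share 52.4% and 51.0% of their words with other genes. Their levels per kb are too low if reads that fit both genes were not counted. Dividing by the summed length of all annotated exons in place of 1 transcript kept *Catsperz* and *Efcab9* at ranks 1 and 2.

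**Figure D1:**
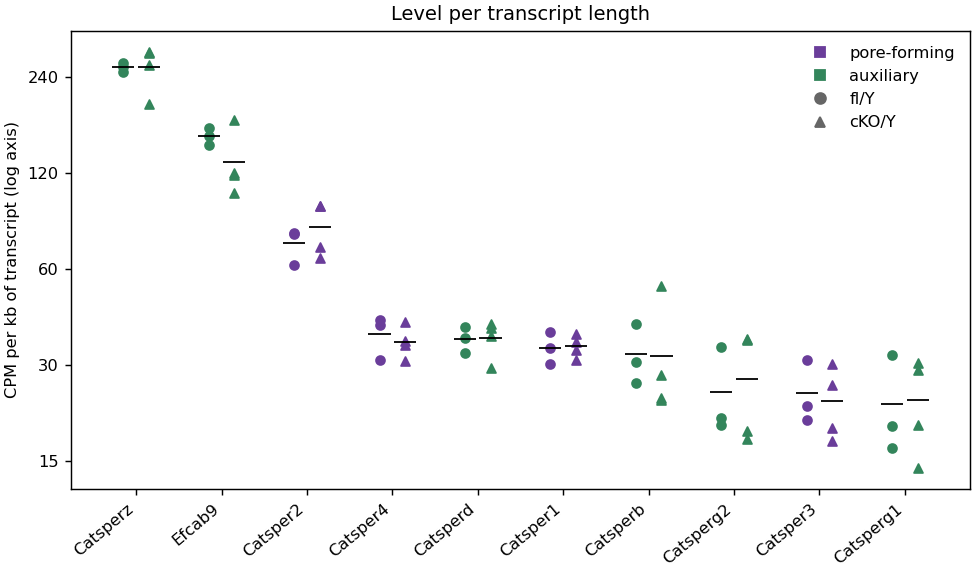
Level of each CatSper gene per kb of its longest coding transcript (log axis, CPM per kb), with 1 point per library, circles for the 3 fl/Y and triangles for the 4 cKO/Y testes, and a line at each mean. *Catsperz*, *Efcab9* and *Catsper2* lie above the other 7 genes, whose ranges run into each other, and the genotypes overlap for each gene.

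The balance of pore and auxiliary RNA overlapped between the genotypes. Summed over the 4 pore genes, the level was 168 ± 8.22 CPM per kb in fl/Y (SD, n = 3) and 174 ± 19.6 in cKO/Y (SD, n = 4). The 6 auxiliary genes summed to 531 ± 3.65 CPM per kb in fl/Y and 508 ± 73.2 in cKO/Y. Most of the auxiliary sum came from *Catsperz* (258 CPM per kb in fl/Y) and *Efcab9* (157), so the share of the pore genes depends largely on them. *Catsperz* reads may also include those of *Kcnk4*, or lack those that fit both genes. The pore share of the total was 24.3%, 23.0% and 25.0% in fl/Y replicates 1 to 3 and 29.4%, 24.2%, 22.2% and 27.1% in cKO/Y replicates 1 to 4. The cKO/Y libraries held both the highest and the lowest share, so the fl/Y values fell inside their range.

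Between genotypes, no CatSper gene passed the test. limma called 0 of 10 at an adjusted p under 0.05 and 0 of 10 at an unadjusted p under 0.05, and edgeR and DESeq2 on the recovered reads also gave 0 and 0. Over all 19400 genes tested, 0.00515% were called, which is *Rlim* alone, and 2.58% had an unadjusted p under 0.05. The fitted difference, cKO/Y minus fl/Y, was below 0 for 9 members and above 0 for *Catsper2*. Of all 19400 genes tested, 9942 were below 0, and the members share the same libraries. The median log2 difference was -0.01 over the pore genes and -0.05 over the auxiliary genes, beside -0.01 over all genes. Genotypes did not overlap in 0 of the 10 members and in 2.92% of all genes. The 95% confidence interval of each of the 10 included 0. Their width differed by gene and is given with each value below, with the lowest bound at -0.59 for *Efcab9* and the highest at 0.51 for *Catsper2* on the log2 scale.

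**Figure D2:**
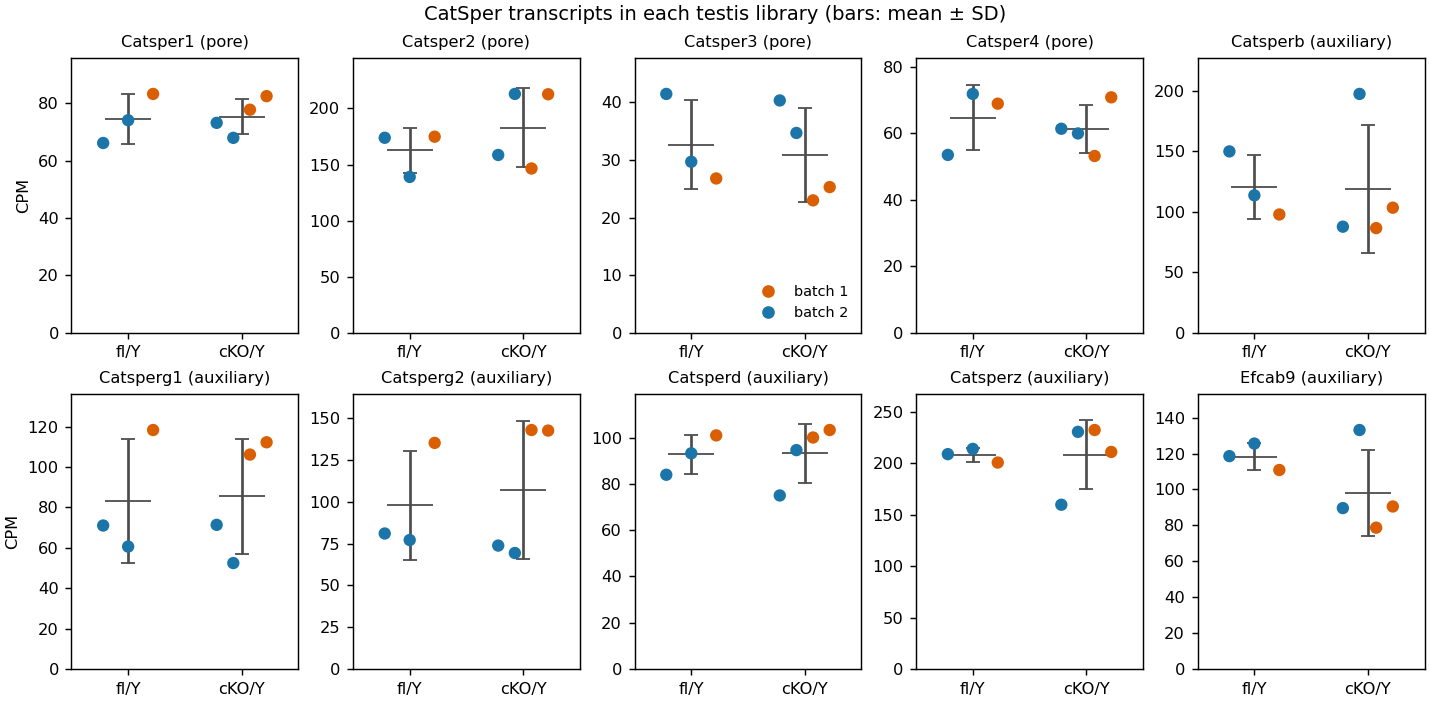
CPM of the 10 CatSper genes (vertical axes from 0, scaled per gene), with 1 point per testis library coloured by batch and the mean ± SD of 3 fl/Y and 4 cKO/Y libraries. Genotypes overlap in every panel, while the batch 1 points of *Catsperg1* and *Catsperg2* lie above all batch 2 points.

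*Catsper1*, for the pore subunit described first, was the steadiest member of the 10. It stood at 66.2, 74.1 and 83.3 CPM in fl/Y and at 73.2, 68.0, 77.8 and 82.5 CPM in cKO/Y. The 2 genotypes covered the same range, with a log2 difference of -0.02 (95% interval -0.31 to 0.28), and the highest library was 1.26 times the lowest.

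*Catsper2*, the most abundant pore RNA, gave 174, 139 and 175 CPM in fl/Y and 159, 213, 146 and 213 CPM in cKO/Y. cKO/Y replicates 2 and 4 were the highest of the 7, while the other 2 cKO/Y libraries lay among the controls. The log2 difference of 0.15 (95% interval -0.21 to 0.51) was the only positive one. It was 0.01 within batch 1, where fl/Y replicate 3 is the only control, and 0.24 within batch 2.

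*Catsper3* and *Catsper4* complete the pore. *Catsper3*, the lowest pore RNA per kb, was at 41.5, 29.7 and 26.8 CPM in fl/Y and at 40.3, 34.7, 23.0 and 25.3 CPM in cKO/Y. Each genotype ran from a high batch 2 library to low batch 1 libraries, and the genotype difference was -0.01 on the log2 scale (95% interval -0.37 to 0.36). *Catsper4* was at 53.5, 71.9 and 69.0 CPM in fl/Y and at 61.4, 60.0, 53.2 and 70.9 CPM in cKO/Y, with a log2 difference of -0.09 (95% interval -0.43 to 0.26).

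Of the auxiliary genes, *Efcab9*, the calcium-sensing partner of CatSper zeta, had the largest fitted genotype difference of the family. It was at 119, 126 and 111 CPM in fl/Y and at 89.6, 133, 78.7 and 90.5 CPM in cKO/Y. 3 of 4 cKO/Y libraries were below all 3 fl/Y libraries, and cKO/Y replicate 2 was above them all. The log2 difference was -0.25 ± 0.16 (SE, 95% interval -0.59 to 0.09, unadjusted p = 0.136 by limma, adjusted p = 1.00). It was -0.39 within batch 1, where fl/Y replicate 3 is the only control, and -0.16 within batch 2. Without cKO/Y replicate 2 it was -0.42, with an unadjusted p of 0.0109 and an adjusted p of 0.785 by limma. Over all alternatives the adjusted p of *Efcab9* ranged from 0.489 to 1, so the difference did not pass the threshold in any of them.

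*Catsperz*, whose protein pairs with EFCAB9, had a smaller fitted genotype difference than *Efcab9*, and no test compared these genes. *Catsperz* RNA was at 209, 214 and 201 CPM in fl/Y and at 160, 231, 232 and 211 CPM in cKO/Y, and the controls lay inside the range of the mutants. The log2 difference was -0.03 (95% interval -0.36 to 0.30), and cKO/Y replicate 1 was the lowest of the 7.

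*Catsperb*, which encodes the beta subunit, varied most by residual spread. It was at 150, 114 and 97.9 CPM in fl/Y and at 87.8, 198, 86.6 and 104 CPM in cKO/Y. cKO/Y replicate 2 was 2.28 times the lowest library, and the genotype difference of -0.01 (95% interval -0.48 to 0.46) became -0.31 without it and 0.27 without cKO/Y replicate 1. *Catsperd*, for the delta subunit, was at 84.0, 93.3 and 101 CPM in fl/Y and at 75.1, 94.7, 100 and 103 CPM in cKO/Y, with a log2 difference of -0.04 (95% interval -0.34 to 0.27).

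The gamma genes differed little between genotypes and much between batches. *Catsperg1* was at 71.0, 60.6 and 118 CPM in fl/Y and at 71.3, 52.4, 106 and 112 CPM in cKO/Y. *Catsperg2* was at 81.0, 77.1 and 135 CPM in fl/Y and at 73.8, 69.4, 143 and 143 CPM in cKO/Y. In both genotypes the low values belonged to batch 2 and the high values to batch 1, with no overlap. The genotype differences were -0.11 (95% interval -0.43 to 0.22) and -0.05 (95% interval -0.35 to 0.24) on the log2 scale.

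**Figure D3:**
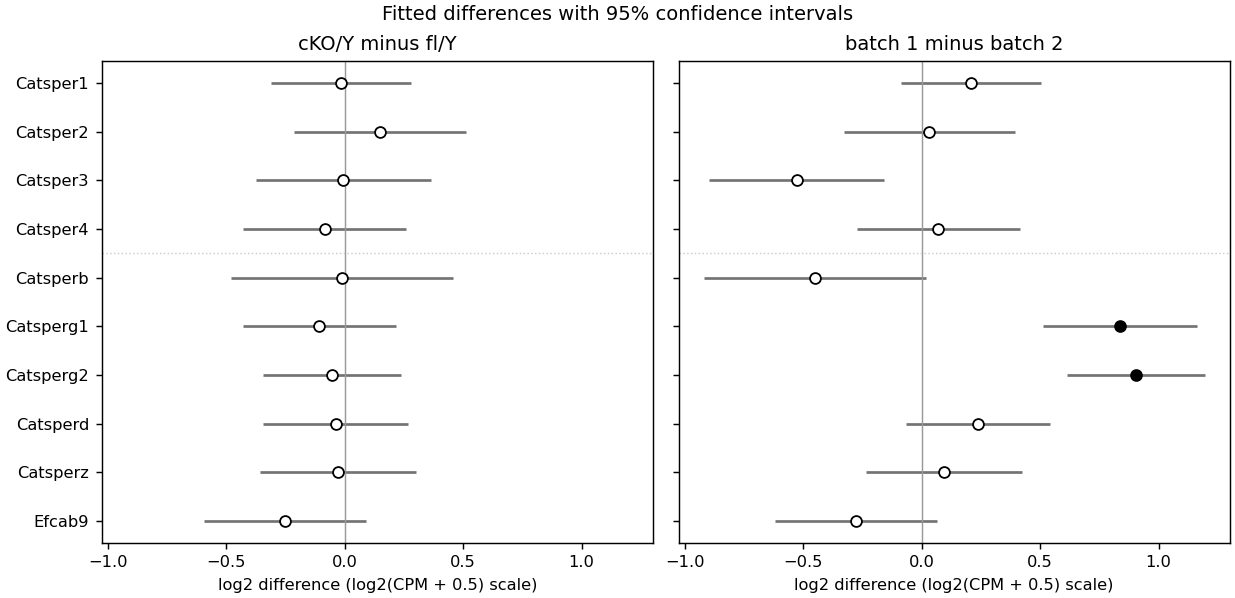
Fitted log2 difference of each CatSper gene on the log2(CPM + 0.5) scale with its 95% confidence interval, for cKO/Y minus fl/Y (left) and batch 1 minus batch 2 (right), filled where the limma adjusted p was under 0.05. All genotype intervals include 0, and *Catsperg1* (0.84) and *Catsperg2* (0.90) are the filled points on the right.

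Between batches, 2 of 10 CatSper genes passed an adjusted p of 0.05, both auxiliary and both higher in batch 1. Of all genes tested, 7.06% were called, 3.6% as higher and 3.46% as lower in batch 1. *Catsperg1* was higher by 0.84 ± 0.15 on the log2 scale (SE, 95% interval 0.51 to 1.16, limma adjusted p = 0.00748) and *Catsperg2* by 0.90 ± 0.14 (95% interval 0.61 to 1.19, adjusted p = 0.00276). The sum of the pair was at 152, 138 and 254 CPM in fl/Y and at 145, 122, 249 and 255 CPM in cKO/Y. It rose by 0.87 (95% interval 0.58 to 1.17, limma adjusted p = 0.00354). The sum does not depend on how counted reads were split between the pair. If reads that fit both genes were left out of the counts, the sum lacks them too, and this was not tested. edgeR and DESeq2 also called 2 of the 10. At an unadjusted p under 0.05, limma gave 3 of 10, adding *Catsper3*, beside 24.8% of all genes. Without fl/Y replicate 3, the only control in batch 1, the adjusted p of *Catsperg1* was 0.0949, and without the variance trend it was 0.0990 and that of *Catsperg2* was 0.0635.

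Of the pore genes, *Catsper3* went the other way, by -0.53 ± 0.17 (SE, 95% interval -0.90 to -0.16, unadjusted p = 0.00819 and adjusted p = 0.0765 by limma). Its 3 batch 1 libraries lay between 23.0 and 26.8 CPM, below the 4 of batch 2, between 29.7 and 41.5 CPM. It passed the threshold without fl/Y replicate 2 (adjusted p = 0.0413). *Catsperb* gave -0.45 ± 0.22 (95% interval -0.92 to 0.02, adjusted p = 0.219), and this rested on single libraries. Without cKO/Y replicate 1 it passed (-0.74, limma adjusted p = 0.0123), and without cKO/Y replicate 2 it was -0.15 (adjusted p = 0.673). The other 6 differences lay between -0.28 for *Efcab9* and 0.24 for *Catsperd*. Batches did not overlap in 5 of 10 members, with *Catsper1*, *Catsperd*, *Catsperg1* and *Catsperg2* higher and *Catsper3* lower in batch 1, and in 23.6% of all genes. No genotype difference was shown to depend on the batch, since the test of genotype by batch gave 0 of 10 at an adjusted and 0 of 10 at an unadjusted p under 0.05 by limma, and also 0 by edgeR and DESeq2, beside 0.0103% and 2.08% of all genes by limma.

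**Figure D4:**
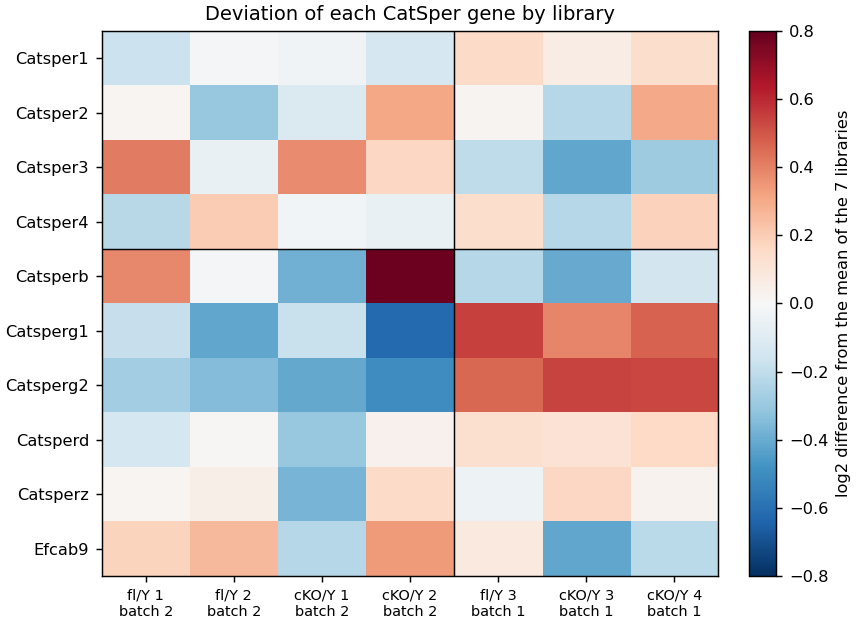
Log2 difference of each CatSper gene in each library from its mean over the 7 libraries, with batch 2 left and batch 1 right of the vertical line and pore genes above the horizontal line. *Catsperg1* and *Catsperg2* are below their mean in the 4 batch 2 libraries and above it in the 3 of batch 1, *Catsper3* is above its mean in 3 batch 2 libraries and below it in batch 1, and the strongest single value is *Catsperb* in cKO/Y replicate 2.

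The GC content of a transcript moved with the batch difference over all genes. Coding genes under 40% GC had a median log2 batch difference of -0.52 (885 genes) and those over 55% had 0.37 (3410 genes). *Catsperb* has the lowest GC content of the family at 37.2%, and *Efcab9* follows at 44.3%. After each library was centred within 20 bins of GC content, an alternative chosen after seeing the data, the batch difference of *Catsperb* was 0.10 and that of *Efcab9* -0.06. In that fit the residual SD of *Catsperb* was 0.20 in place of 0.45. The gamma genes, at 48.7% and 48.3% GC, stayed at 0.84 and 0.91 (adjusted p = 0.00126 and 0.000254 by limma). *Catsper3*, at 48.6%, stayed at -0.52 (adjusted p = 0.0632 by limma). Centring shifts a gene by the median of its GC bin. Coding genes of 45 to 50% GC had a median batch difference of -0.07, so these genes could move only little. *Catsper4* went from 0.07 to -0.09 and *Catsperz* from 0.09 to -0.09. No genotype difference of a CatSper gene passed the threshold in this fit either, and that of *Efcab9* was -0.22.

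**Figure D5:**
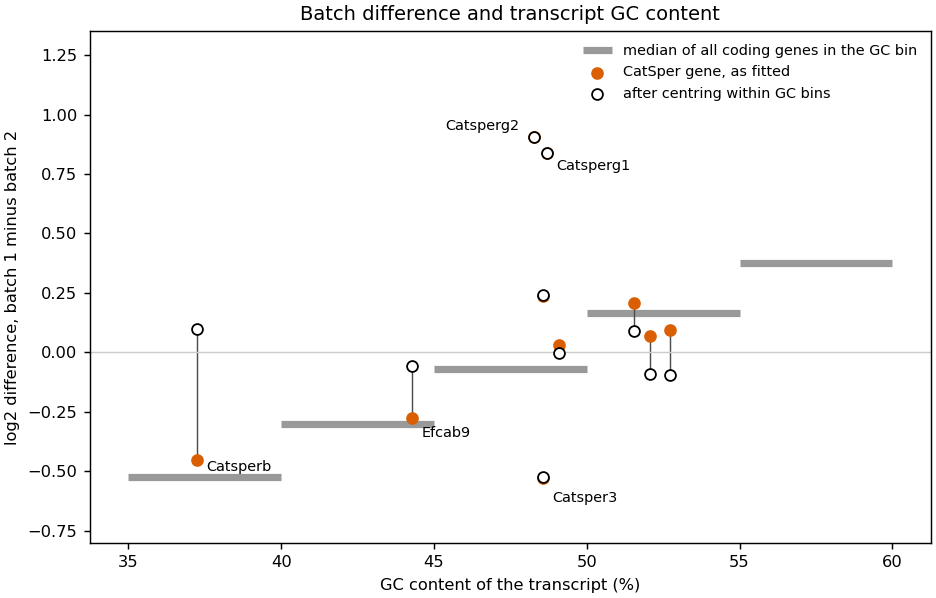
Log2 difference between batch 1 and batch 2 against the GC content of the longest coding transcript, for the 10 CatSper genes as fitted (filled) and after centring within GC bins (open), with grey bars at the median of all coding genes per bin (the outer bars stand for under 40% and over 55%). *Catsperb* and *Efcab9* move close to 0, while *Catsperg1*, *Catsperg2* and *Catsper3*, at a GC content where the grey bar is near 0, stay in place.

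Some germ cell markers also differed between batches. For comparison, 3.6% of all genes were called higher and 3.46% lower in batch 1, and 24.8% had an unadjusted p under 0.05. Of 8 markers of elongating spermatids, 3 were called higher in batch 1, among them *Prm2*, a protamine that packs sperm DNA (log2 difference 1.12, limma adjusted p = 0.0134), and 0 lower. Their summed level was 8749 to 9851 CPM in batch 2 and 11976 to 13759 CPM in batch 1. Of 8 markers of spermatocytes, 3 were lower in batch 1, among them *Sycp1* of the synaptonemal complex (-1.38, adjusted p = 0.00607), and 1 was higher, the chaperone gene *Hspa2* (0.65, adjusted p = 0.0466). Of the 8 round spermatid markers, 0 were called by limma, edgeR or DESeq2, while 3 had an unadjusted p under 0.05 by limma and 4 by each of the others. The part of these markers in the CatSper batch differences was not tested. Between genotypes, 0 of the 24 markers of these 3 stages were called, and 0 had an unadjusted p under 0.05, by limma, edgeR and DESeq2 alike. Of 30 markers of spermatogonia, somatic testis cells, epididymis and blood, 0 were called between genotypes by any of the 3 tools (3 at an unadjusted p under 0.05 by limma, 3 by edgeR and 0 by DESeq2, beside 2.58% of all genes by limma). limma called 2 of the 30 between batches, a share near the 7.06% of all genes. The Leydig cell hormone gene *Insl3* was called higher in batch 1 (4.01, adjusted p = 6.34e-05) and the smooth muscle gene *Tagln* lower (-2.02, adjusted p = 0.00593). *Tagln* was at 0.315 to 0.530 CPM in batch 1, near the worth of 3 reads (0.301 to 0.945 CPM). The median batch difference was 0.06 over the 6 Leydig cell markers. It was -0.07 over the 4 markers of peritubular myoid cells, the list that holds *Tagln*.

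The other genes of the channel and its pathway did not pass the test between genotypes either. 24 of them were tested, and limma, edgeR and DESeq2 each called 0 at an adjusted p and 0 at an unadjusted p under 0.05 (0.00515% and 2.58% of all genes by limma), with a median log2 difference of -0.07 by limma. Of 6 further genes of the CatSper complex, all 6 had a fitted difference below 0, with a median of -0.10, beside 9942 of all 19400 genes below 0. *Catspere1*, for the epsilon subunit, was at 78.8, 75.7 and 70.6 CPM in fl/Y and at 58.3, 91.5, 60.8 and 72.9 CPM in cKO/Y (log2 difference -0.08). *C2cd6*, which is needed to bring the channel into the tail, was at 460, 452 and 351 CPM in fl/Y and at 328, 480, 308 and 345 CPM in cKO/Y (-0.16). *Slco6c1*, a transporter of the complex, was at 240, 177 and 140 CPM in fl/Y and at 140, 295, 106 and 160 CPM in cKO/Y (-0.05). In these 3, cKO/Y replicate 2 was the highest of the 7 libraries, as for *Catsperb*, *Catsper2* and *Efcab9*. Of the other 3 complex genes, *Catspere2* and *Tmem262* were highest in cKO/Y replicate 4 and *C2cd6b* in fl/Y replicate 2. *C2cd6b*, a relative of *C2cd6*, was the gene of these lists that limma called between batches, as lower in batch 1 (-0.62, adjusted p = 0.0496). This is 1 of 24, beside 7.06% of all genes. edgeR called 0 of the 24 between batches and DESeq2 called 3.

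Of 10 genes of sperm ion and pH control, 6 were above 0 and 4 below between genotypes, with a median of 0.02. *Slc9c1*, the sperm sodium-proton exchanger, was at 224, 226 and 180 CPM in fl/Y and at 214, 329, 121 and 217 CPM in cKO/Y (log2 difference 0.08). *Kcnu1*, for the SLO3 potassium channel, had a difference of -0.08 (95% interval -0.38 to 0.22) and its partner *Lrrc52* of 0.26 (95% interval -0.21 to 0.73). Of 8 genes of cAMP and calcium signalling, 7 were below 0, with a median of -0.08, beside 9942 of all 19400 genes below 0. *Adcy10*, the soluble adenylyl cyclase, had -0.02, and *Plcz1*, the sperm factor for egg activation, had -0.11.

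The members did not rise and fall as 1 unit across libraries. cKO/Y replicate 2 was the highest library for 3 of the 10 and the lowest for 2, and cKO/Y replicate 3 was the highest for 2 and the lowest for 4. Averaged over the 10, the deviation from the mean ran from -0.17 in cKO/Y replicate 1 to 0.12 in cKO/Y replicate 4 on the log2 scale. Among 9368 other genes with a mean of at least 10 CPM, *Ywhaq* (Pearson r = 0.974), *Dnah7b* (0.968) and *Ppp2r3c* (0.962) were most like this average over the 7 libraries. They were picked as the best of many, and the libraries share depth and batch, so these r are a description.

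For 8 of the 10 genes, all but *Catsper1* and *Catsperg2*, at least 1 RefSeq promoter of 300 bases (250 before and 50 after the start, GRCm38.p6) was at hand. Each window was searched on both strands for TGACG, the core of the cAMP response element that CREM, a regulator of spermatid genes, binds. 2 of the 8 genes held it, *Catsper2* and *Catsperd*, beside 23.0% of all 27025 genes with such a window. The full element TGACGTCA was in 0 of 8, and in 2.03% of all genes. The stretches with matches are shown with the matched letters in capitals (CGTCA is the same core on the other strand). They lie at chr2:121413845-121413889 on the minus strand for *Catsper2* and at chr17:56626867-56626965 on the plus strand for *Catsperd*.
Catsper2: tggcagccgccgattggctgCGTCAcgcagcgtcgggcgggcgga
Catsperd: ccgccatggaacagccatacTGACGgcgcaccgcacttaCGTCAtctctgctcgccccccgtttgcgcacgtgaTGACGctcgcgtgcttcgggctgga
*Catsperd* held 3 matches in 1 window, chr17:56626797-56627096, and *Catsper2* held 1. The other *Catsperd* window, chr17:56627893-56628192, spans the annotated gene start at 56628143 and held 0. The promoter windows also differed in base composition, from 74.7% GC with 41 CpG in *Catsper2* to 38.0% GC with 1 CpG in *Catsperb*.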

How the data were processed

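RNA of 7 testis libraries had been sequenced by the study as 35-base read pairs. Of the tools, the submitters' processing notes name HISAT2 2.1.0, featureCounts and edgeR, with the build GRCm38. The study's methods instead name TopHat and HTSeq, also with edgeR. The deposited table gives signal as CPM, and the authors' scaling equalled TMM factors. 100% of values in each library were whole multiples of 1 read to within 0.001 of a read, so reads were recovered. The limit that a count of 0 allows, 3 reads, was worth 0.301 to 0.945 CPM and includes counting error alone.

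The 19400 genes above 1 CPM in 3 or more libraries were fitted on log2(CPM + 0.5) with limma 3.58.1 in R 4.3.3, with a variance trend and the labelled batch as covariate. This scale understates changes of low genes. P-values are two-sided, adjusted by Benjamini-Hochberg over all genes tested (threshold 0.05). Separate animals are assumed from the methods, and p-values measure the spread between these libraries. edgeR 4.0.16 and DESeq2 1.42.0 were run on the recovered reads as alternatives, beside other pseudocounts, filters, scalings, variance models and libraries left out. The fit was tested on simulated data. Shared words, exon lengths and GC content came from GENCODE M21 transcripts with Python 3.11.15. Named genes were the 10 members, *Rlim*, the 3 genes most like the members' average, and genes of the pathway and marker lists. The members and lists were chosen with earlier results of these data known. *Tmem249* and *Hvcn1* of the pathway lists were not analysed here.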

Additional observations from a re-analysis of the deposited data

Results flagged for a closer look

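*Catsperb* in cKO/Y testes was marked because 1 of the 4 libraries stood far from the others. cKO/Y replicate 2 was at 198 CPM and the next highest, replicate 4, at 104 CPM, and this gap was 0.848 of the whole range of the group, above the 95% limit of Dixon's test for 4 values. The 10 CatSper genes were each examined in this way in the cKO/Y group, and chance alone marks about 1 in 20 groups. *Efcab9* came next, with a gap of 0.783 of its range to the same library, under the limit. Ribosomal RNA took 20.2% of the reads of that library, inside the range of batch 2. In the fit centred within GC bins, the residual SD of *Catsperb* was 0.20 in place of 0.45. The cause of the gap was not tested.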

How the results depend on the processing

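No CatSper gene was called between genotypes, or for genotype by batch, in any of the 24 other settings for the first and the 19 for the second, and the medians of pore and auxiliary genes moved by less than the spread between libraries in all 24. The signs of small differences did change, with 5 to 9 of the 10 members below 0. The number of CatSper genes called between batches was 2, and it was 0 without the variance trend, 4 with array weights (adding *Catsper3* and *Catsperb*), 1 with the gamma pair summed into 1 row, which joins both calls, and 1 to 3 with a library left out (1 without fl/Y replicate 3). Over all genes, 1 was called between genotypes, against 0 without the variance trend, 24 with array weights, 0 without the batch term, 28 in batch 1 alone, 0 in batch 2 alone, and 0 to 3 with a library left out. Between batches, 1370 were called, against 2319 with equal totals, 122 without the variance trend, 3948 with array weights, 598 after centring within GC bins (14770 genes tested), and 73 to 3030 with a library left out. Equal totals raised the median batch difference of all genes by 0.22 (log2), and 90.7% of the batch calls were then higher in batch 1, beside 50.9% in the fit reported and 63.5% after GC centring. With mitochondrial and rRNA genes taken out before totals were made equal, the median moved by -0.025, and 43.9% of batch calls were higher in batch 1. This alternative was chosen after seeing the data. The causes of these shifts were not tested.

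Replicate numbers shared by the genotypes did not meet the criterion for pairs, since the correlations of deviations were 0.101, 0.066 and 0.392 for numbers 1, 2 and 3. With the replicate block, 0 genes were called between genotypes (356 at an unadjusted p under 0.05), and of the CatSper genes 0 were called by either p. The genotype by batch term could not be fitted without fl/Y replicate 3. Both the number of libraries (3 controls among 7) and the depth (as few as 73 reads for *Catsper3*) limit precision, and their shares were not compared.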
